A study of Mus musculus with 8 samples.

Results

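Y RNAs and other small RNAs made by RNA polymerase III were followed in ribosome profiling and mRNA libraries of mouse brain. The members are the 5 genes named Rny1, Rny3, Rmrp, Rpph1 and Rn7sk in the deposited gene table, which lists 54532 genes. Each name had 1 row. They were picked by name and chosen by their footprint counts in these libraries, so their levels, and the order among them, are given as a description and carry no test. The difference between genotypes was tested for every gene of the table, and the members' lines are given from that fit.

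Ribosome profiling sequences short RNA fragments that remain after nuclease treatment of ribosome-bound RNA, and the reads are called footprints here. There were 4 footprint libraries of wild-type mice (WT) and 4 of mice labelled Nsun5-KO (KO), each with an mRNA library of the same name. They are called WT1 to WT4 and KO1 to KO4 after the numbers in the labels. Nsun5 encodes an enzyme that methylates a cytosine of ribosomal RNA, and the series asks how its loss acts on the brain and on sleep. The mice were 3-month-old males of 1 litter, 5 per genotype in the protocol, anaesthetised with pentobarbital, and all groups used here share these conditions. The tissue is labelled brain, and the series text calls it whole brain. How the knockout allele was made is not given in the sources used here, and no label says which library came from which mouse. The p-values therefore measure a spread between libraries that may be technical in part.

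Polymerase III makes short, abundant RNAs that are not translated, and the members belong to the class whose promoter lies in front of the gene. Y RNAs are small cytoplasmic hairpin RNAs bound by the Ro60 protein and, at their 3′ end, by the La protein. They are known for roles in RNA quality control and for giving rise to stable fragments in brain and blood. Rpph1 is the RNA subunit of ribonuclease P, which trims the 5′ end of transfer RNA precursors, and Rmrp is the RNA of the related ribonuclease MRP, which acts on ribosomal RNA precursors. Rn7sk (7SK RNA) is nuclear and holds the kinase P-TEFb, which releases paused RNA polymerase II, in an inactive state.

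The footprint libraries held 586392 to 3493841 counts assigned to genes and the mRNA libraries 15642086 to 17829523. Nsun5 itself did not separate the groups: its mRNA counts were 82 to 109 in the libraries labelled WT and 83 to 124 in those labelled KO (log2 fold change 0.12 ± 0.15, SE, n = 4 each, edgeR adjusted p = 0.820). Reads outside a deleted part would give this too, so the check decides nothing, and WT and KO stand below for libraries labelled so. All 5 neuron and 7 glia markers had counts in both kinds of library. Their summed footprint level was 2950 to 4460 CPM (counts scaled to a common library size) in WT and 2940 to 3230 in KO for neurons, and 3970 to 4180 and 3330 to 3730 for glia. Red blood cells, whose markers were the measure of blood in the tissue, had 6 of 8 markers with footprint counts, at a sum of 11.3 to 40.3 CPM in WT and 8.97 to 48.9 in KO, and the red cell microRNAs Mir451a and Mir486 were at 0. Choroid plexus markers summed to 766 to 1990 CPM in WT and 867 to 1330 in KO. Of 4 liver markers, 3 had footprint counts (135 to 1650 CPM in WT and 272 to 3080 in KO, nearly all on Mir122), and Serpina1a was at 0. In mRNA the summed neuron markers were at 4890 to 5460 CPM in WT against 5730 to 6350 in KO, and the glia markers at 9010 to 10100 against 7410 to 8680. Glia markers were thus lower in every KO library in both kinds of data. Choroid plexus markers summed to 305 to 1150 mRNA CPM in WT and 47.9 to 1170 in KO. Liver markers summed to 0.629 to 1.88 mRNA CPM in WT and 0.534 to 30.0 in KO, and red blood cell markers to 65.7 to 158 and 68.2 to 222. The part of any of these in the levels below was not tested. In bulk tissue, fewer cells of a type and less RNA per cell cannot be told apart.

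Footprint libraries differed in composition within each genotype. MicroRNAs took 23.0%, 35.9%, 55.0% and 50.5% of the counts in WT1 to WT4 and 60.3%, 24.6%, 49.3% and 55.9% in KO1 to KO4. WT1 and KO2 were thus the poorest in microRNA and held the most protein-coding counts, 65.9% and 65.3%. CPM values given here refer to library sizes adjusted by TMM, a method that sets most genes to the same level across libraries. That adjusted size was 1.47 times the total in WT1, 1.46 times in KO2 and 0.662 times in KO1.

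The small RNAs made up 1064014 of 14807370 footprint counts (7.19%), and Rny1 alone held 98.8% of that sum. In mRNA, by contrast, they had 106 of 133677669 counts. The mRNA counts were 104 on Rn7sk and 2 on Rny1, both in WT4, and Rny3, Rpph1 and Rmrp were listed at 0 in all 8 mRNA libraries. A count of 0 allows up to 0.168 to 0.192 CPM of the mRNA total (3 counts per library, counting error only). RNAs of this class normally have no poly(A) tail, and how the mRNA libraries were made is not given in the sources used here.

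Set per length, as RPKM of the authors' deposited table (reads scaled to gene length and library size), the order of the levels was the same in 8 of 8 footprint libraries. Rny1 led at 360951 to 916057 RPKM, followed by Rny3 at 2033 to 12598, Rpph1 at 767 to 1361 and Rn7sk at 50.6 to 211, with Rmrp at 0. The ranges of neighbours in this order did not overlap. By counts, not set per length, Rny3 was below Rpph1 in WT1, WT2 and KO2, at count ratios of 0.478, 0.997 and 0.823. Reads of this kind are short, so a level per length does not say how much of each RNA was covered.

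Rny1 (ENSMUSG00000065701, mm10 chromosome 6, 47788069 to 47788180, minus strand, 112 bases, in the annotation class misc_RNA for various small RNAs) was the second most counted of all genes. It had 74847, 264028, 294785 and 162079 footprint counts in WT1 to WT4 and 82144, 80920, 38456 and 54020 in KO1 to KO4. Its rank by count was 1 in WT1, 4 in WT4 and KO4, and 2 in the other 5 libraries. As a share of the library it ran from 4.39% in KO4 (exact 95% interval 4.36 to 4.43%) to 9.31% in WT2 (9.28 to 9.35%). PCR copies are not separate molecules, so these intervals cover counting error only, and the spread between libraries was far wider. Rny1 held 98.8% of the 1064466 footprint counts on the 562 misc_RNA genes.

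On the adjusted scale Rny1 stood at 42398, 81882, 107884 and 61085 CPM in WT1 to WT4. The KO libraries had 100348, 42706, 73914 and 53012 CPM. Both groups held a library near the bottom and a library near the top, and the ranges overlapped almost completely. WT averaged 73312 ± 28130 CPM and KO 67495 ± 25461 (SD, n = 4). The KO to WT difference was −0.12 ± 0.61 on the log2 scale (SE, 95% interval −1.44 to 1.20, edgeR adjusted p = 0.993). The interval leaves room for a change of more than 2-fold either way. The sign was not stable, at 0.14 without WT3 and 0.06 without KO2.

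**Figure D1:**
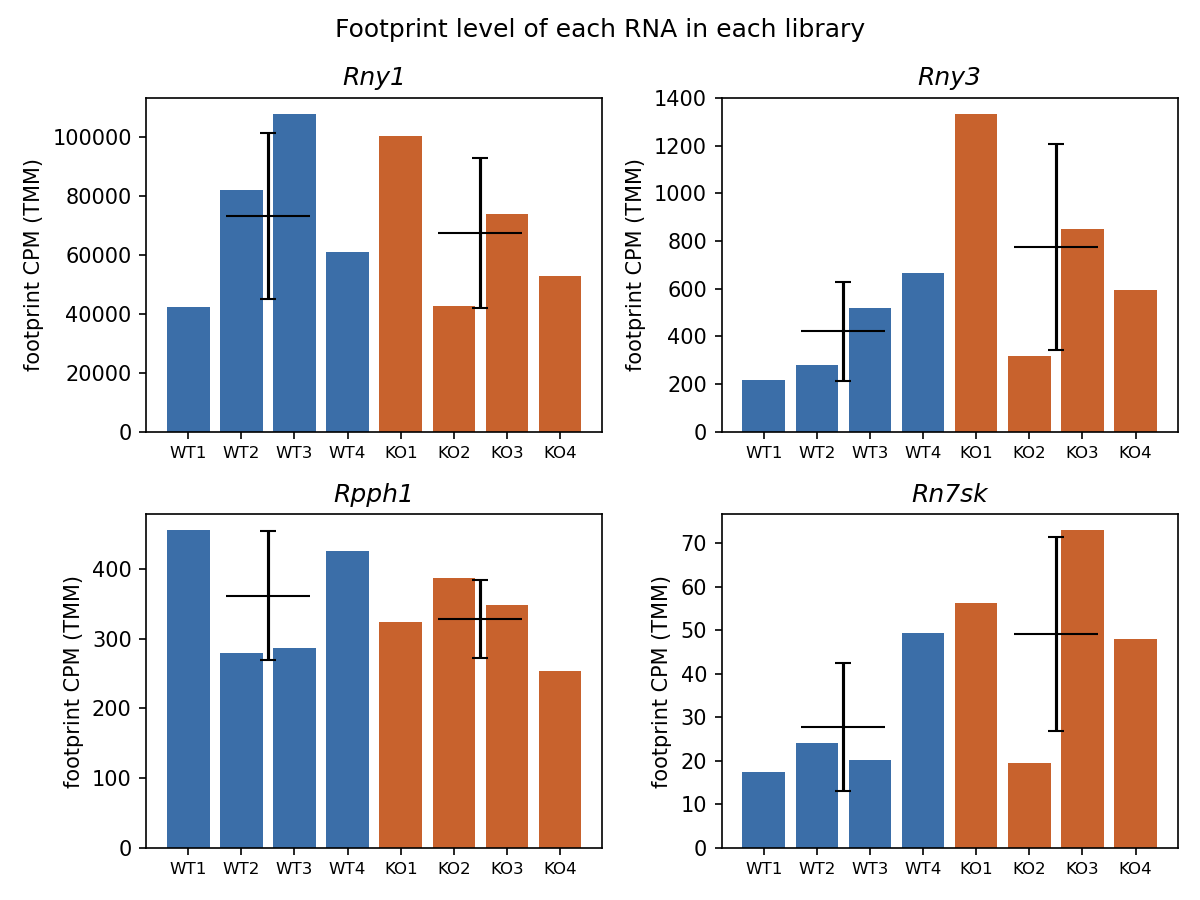
Footprint level (CPM of the TMM library size) of Rny1, Rny3, Rpph1 and Rn7sk in each of 4 WT (blue) and 4 KO (orange) libraries, with the group mean and SD in black. WT and KO bars overlap in all 4 panels, and KO1 has the highest Rny3 bar at 1334 CPM.

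Rny3 (ENSMUSG00000064945, chromosome 6, 47781624 to 47781725, plus strand, 102 bases) is the other Y RNA gene. It lies 6344 bases from Rny1 and runs in the opposite direction. The nearest other annotated genes were the pseudogene Rpl31-ps7 between them, at 0 in all libraries, and the protein-coding Pdia4, which had 927 footprint and 5011 mRNA counts. Rny3 had 384, 898, 1424 and 1767 footprint counts in WT1 to WT4 and 1092, 603, 442 and 605 in KO1 to KO4, so the neighbours differed greatly in their counts.

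In CPM, Rny3 stood at 218, 278, 521 and 666 in WT1 to WT4 and at 1334, 318, 850 and 594 in KO1 to KO4. KO1 and KO3 lay above every WT library, while KO2 and KO4 lay inside the WT range. WT averaged 421 ± 210 CPM and KO 774 ± 432 (SD, n = 4). The log2 fold change was 0.88 ± 0.41 (SE, 95% interval −0.01 to 1.76, unadjusted p = 0.0528, edgeR adjusted p = 0.881) and did not pass. It ran from 0.48 without KO1 to 1.20 without WT4, with edgeR adjusted p from 0.540 to 1.0 over the 8 fits that leave out a library. With microRNA counts as the library size, a scaling added after the data were seen, it was 0.45 ± 0.77.

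Rny1 was always the more abundant Y RNA, but the count ratio of Rny1 to Rny3 varied among libraries. It was 195, 294, 207 and 91.7 in WT1 to WT4 and 75.2, 134, 87.0 and 89.3 in KO1 to KO4. A ratio within a library does not depend on the library size. In 3 of 4 WT libraries the ratio was above every KO library, and WT4 lay inside the KO range. The log2 ratio averaged 7.50 ± 0.71 for WT and 6.56 ± 0.36 for KO (SD, n = 4), a difference of −0.95 (exact two-sided permutation p = 0.0571 over 70 splits, where 0.0286 is the smallest possible). It did not pass the threshold of 0.05. Without WT4 the difference was −1.28, with an exact permutation p of 0.0286, the smallest that 35 splits allow. WT4 was the sole WT library inside the KO range, so leaving it out fixed that p in advance and adds no support. Without any other single library the exact permutation p was 0.0571 to 0.143.

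**Figure D2:**
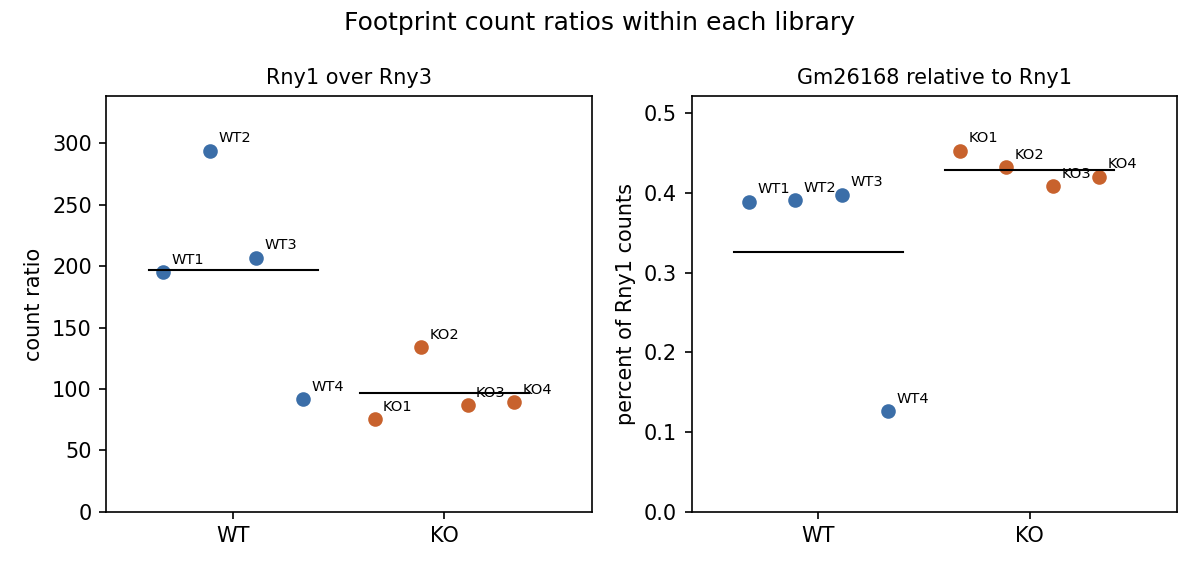
Left, the footprint count ratio of Rny1 to Rny3 in each WT (blue) and KO (orange) library. Right, Gm26168 counts as a percent of Rny1 counts, with the group mean as a line in both panels. WT4 has a ratio of 91.7 among WT ratios of 195 to 294 and a Gm26168 share of 0.126% where the other 7 libraries have 0.389% to 0.453%.

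Reads of Y RNAs can be shared with near-identical copies, since mammalian genomes hold many Y RNA pseudogenes, and how the authors assigned such reads is not given in the sources used here. The predicted misc_RNA gene Gm26168 (chromosome 6, 122623547 to 122623658, plus strand), singled out after its values were seen, has the same length as Rny1. It had 291, 1033, 1172 and 205 footprint counts in WT1 to WT4 and 372, 350, 157 and 227 in KO1 to KO4. Relative to Rny1 that came to 0.389%, 0.391%, 0.398% and 0.126% in WT and 0.453%, 0.433%, 0.408% and 0.420% in KO. The share was 0.389% to 0.453% in 7 libraries and lower in WT4, the library that also had the lowest WT ratio of Rny1 to Rny3. Every KO share was above every WT share, though the lowest KO share (0.408%) was close to the highest WT share (0.398%). This difference in share was not tested. The footprint level of Gm26168 itself overlapped between WT and KO libraries. In the genotype fit it differed by 0.22 on the log2 scale, with a standard error of 0.42, and was not called (edgeR adjusted p = 0.970). The sequence of Gm26168 was not compared with Rny1 here.

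Rpph1 (ENSMUSG00000092837, chromosome 14, 50807449 to 50807767, minus strand, 319 bases) had 804, 901, 783 and 1129 footprint counts in WT1 to WT4 and 265, 733, 181 and 259 in KO1 to KO4. It held 96.5% of the footprint counts on the 22 genes classed as ribozymes. In CPM it stood at 455, 279, 287 and 426 in WT and at 324, 387, 348 and 254 in KO. Relative to the mean its spread in CPM was the smallest among the members detected, and only KO4 fell below the WT range. As a share of library counts its spread was not the smallest. There Rpph1 ran from 0.0211% in KO4 to 0.0669% in WT1, and Rny1 from 4.39% in KO4 to 9.31% in WT2. WT averaged 362 ± 91.8 CPM and KO 328 ± 55.8 (SD, n = 4), so that the log2 fold change was −0.14 ± 0.21 (SE, 95% interval −0.59 to 0.31, edgeR adjusted p = 0.964). A rise or fall of 2-fold lies outside this interval, which is that of the TMM scaling only. The value was −0.30 ± 0.44 relative to total counts and −0.44 ± 0.78 with microRNA counts as the library size (SE). Both of these wider errors leave room for a 2-fold fall, and that with microRNA counts for a 2-fold rise as well.

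Rpph1 has related copies in the table. Rprl3 had 158 footprint counts over the 8 libraries, Rprl2 had 22, and both rows of Rprl1 were at 0, against 5055 on Rpph1. The start of the protein-coding gene Parp2 lies 74 bases away on the opposite strand, with 115 footprint and 1598 mRNA counts. The span of Ccnb1ip1, on the same strand, covers 284 bases of Rpph1 and was listed at 0 in all 16 libraries.

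Rn7sk (ENSMUSG00000065037, chromosome 9, 78175303 to 78175633, minus strand, 331 bases) is a nuclear RNA and had the fewest footprint reads of those detected. It had 31, 78, 55 and 131 counts in WT1 to WT4 and 46, 37, 38 and 49 in KO1 to KO4. In CPM it stood at 17.6, 24.2, 20.1 and 49.4 in WT and at 56.2, 19.5, 73.0 and 48.1 in KO. KO1 and KO3 were above every WT library, KO4 was just under WT4, and KO2 was among the low WT values. WT averaged 27.8 ± 14.6 CPM and KO 49.2 ± 22.4 (SD, n = 4). The log2 fold change was 0.73 ± 0.39 (SE, 95% interval −0.11 to 1.57, edgeR adjusted p = 0.881) and did not pass. It ran from 0.51 without KO3 to 1.17 without WT4, with edgeR adjusted p from 0.540 to 1.0 over the fits that leave out a library. With microRNA counts as the library size it was 0.32 ± 0.87.

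Rn7sk was also the sole member with enough mRNA reads to test. The mRNA libraries WT1 to WT4 gave it 12, 9, 19 and 5 counts, and KO1 to KO4 gave 10, 10, 32 and 7. The high count was that of KO3, and the other KO libraries lay inside the WT range. WT averaged 0.685 ± 0.365 mRNA CPM and KO 0.904 ± 0.733 (SD, n = 4). The log2 fold change was 0.39 ± 0.57 (SE, edgeR adjusted p = 0.852) and turned to −0.33 without KO3.

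Rmrp (ENSMUSG00000088088, chromosome 4, 43492788 to 43493058, minus strand, 271 bases) was listed at 0 in all 8 footprint and all 8 mRNA libraries. A count of 0 allows up to 0.859 CPM of the footprint total in the deepest library and 5.12 in the shallowest (3 counts per library, counting error only). This limit holds for counts assigned to the gene and not for the RNA, since the annotation in the table places other genes on the same bases. The lincRNA gene AL732506.1 (43492783 to 43493063) covers all 271 bases of Rmrp on the same strand and was also at 0 in every library. The span of Ccdc107, a protein-coding gene on the opposite strand, covers 159 bases (58.7%) and had 142 footprint and 2360 mRNA counts.

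Other small RNA genes of the table lie inside another gene too. Of the single-exon small RNA genes wholly inside another single-exon gene of the same strand, 129 of 129 had no footprint count in any library. Rmrp itself is among these 129. The same was true of 65 of 65 that lie inside such a gene on the opposite strand only. Of those inside neither, 4979 of 5893 (84.5%) were at 0. Whether the overlap accounts for the 0 of Rmrp was not tested.

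**Figure D3:**
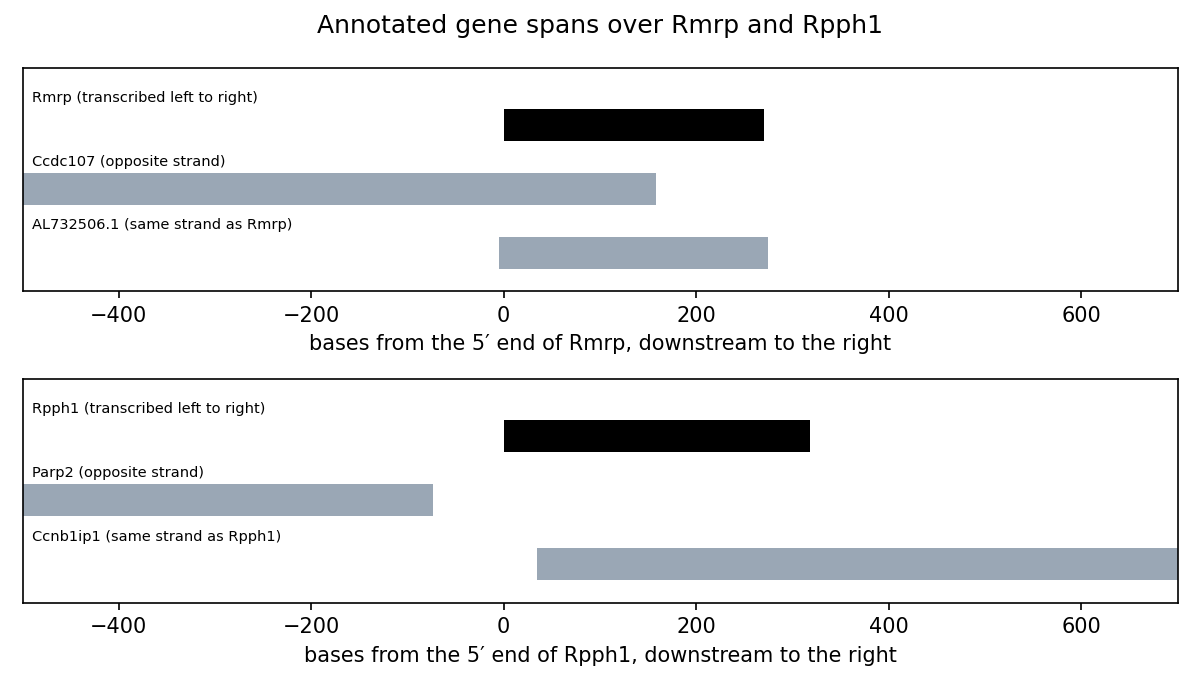
Annotated gene spans near Rmrp (top) and Rpph1 (bottom), in bases from the 5′ end of each, with downstream to the right and spans drawn as far as the panel reaches. AL732506.1 covers all 271 bases of Rmrp, while the first bases of Rpph1 lie outside the span of Ccnb1ip1, which covers 284 bases.

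No member passed the genotype test in either kind of library. In footprints, 4 of the 5 members passed the filter on low counts and 0 of these 4 were called, where edgeR called 0 of 8476 genes (0%). At an unadjusted p under 0.05 there were 0 of 4 members and 468 genes (5.52%), and DESeq2 called 4 genes, none a member. Among all genes, 1.57% had every KO library above every WT library and 2.04% the reverse, and 0 of 4 members did either. In mRNA, edgeR called 0 of 13058 genes (0%), with 1377 (10.5%) at an unadjusted p under 0.05, and DESeq2 called 87. The mRNA libraries did not overlap, KO higher, for 2.85% of genes and, KO lower, for 2.74%. Rn7sk, the 1 member tested there, had overlapping groups and an unadjusted p above 0.05.

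The summed share of the members in the footprint counts was 6.33%, 9.38%, 8.50% and 5.64% in WT1 to WT4 and 6.75%, 6.35%, 6.67% and 4.47% in KO1 to KO4. The highest values were those of WT2 and WT3 and the lowest that of KO4. WT averaged 7.46% ± 1.76 and KO 6.06% ± 1.08 (SD, n = 4), a difference of −1.40 percentage points (exact two-sided permutation p = 0.286). Relative to protein-coding counts the members came to 16.6% ± 6.33 for WT and 15.3% ± 5.68 for KO (exact permutation p = 0.8). Relative to all counts except microRNAs they came to 13.3% ± 4.57 and 12.2% ± 3.78 (exact permutation p = 0.743). Rny1 set the member sum. Without Rny1 the share of all footprint counts averaged 0.0840% ± 0.0214 for WT and 0.102% ± 0.0185 for KO. That difference was 0.0176 points in the other direction (exact permutation p = 0.171).

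The library size in use moved the size of the differences but not their sign. Relative to total counts, the log2 fold change was −0.31 for Rny1, 0.65 for Rny3, −0.30 for Rpph1 and 0.55 for Rn7sk, while the median of all genes moved to −0.15. With microRNA counts as the library size the values were −0.46, 0.45, −0.44 and 0.32, beside a median of −0.30 over all genes. Rny3 and Rn7sk thus stood above the median gene, and Rny1 and Rpph1 below it, under all 5 scalings, with no call under any.

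**Figure D4:**
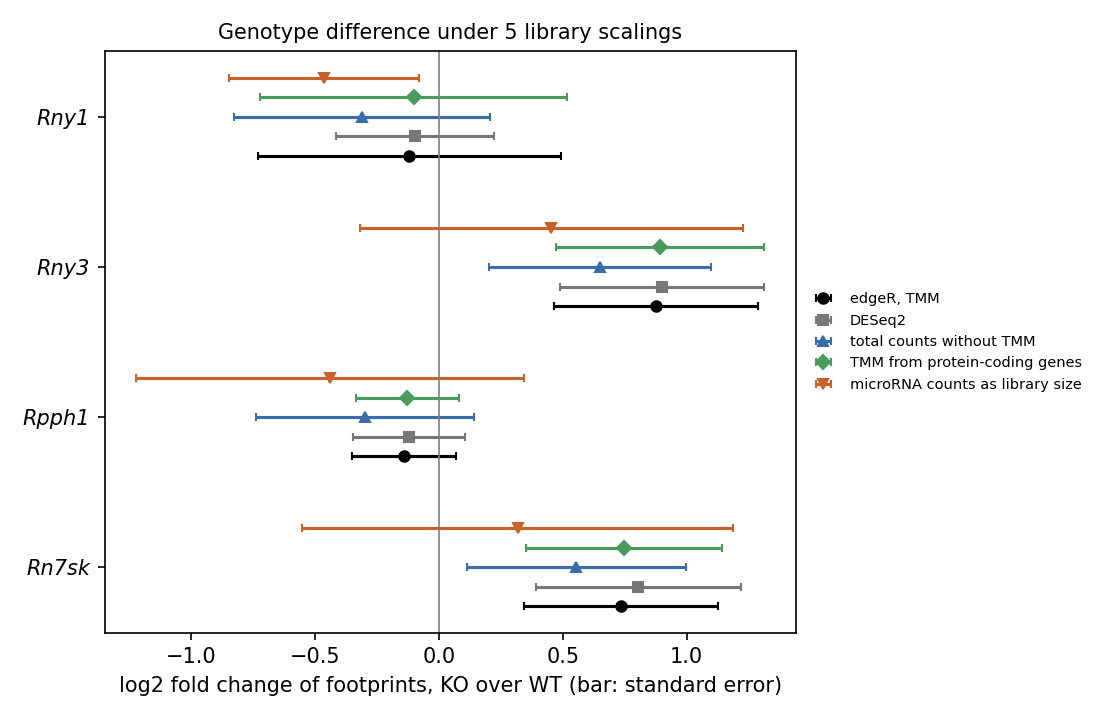
Log2 fold change of footprints, KO over WT, for Rny1, Rny3, Rpph1 and Rn7sk under 5 library scalings, with bars for the standard error. Rny3 (0.45 to 0.90) and Rn7sk (0.32 to 0.80) are right of 0 and Rny1 and Rpph1 left of it, none passing the test.

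Across the 8 footprint libraries the members did not vary as a unit. The log2 CPM of Rny3 and Rn7sk had a Pearson r of 0.850 and that of Rny1 and Rny3 of 0.564. Rpph1 had a negative r with each of the others, at −0.534 with Rny1, −0.240 with Rny3 and −0.158 with Rn7sk. These are descriptions over 8 points that share library sizes and composition. Beside the microRNA share, Rny3 was lowest in WT1 (218 CPM at 23.0% microRNA) and highest in KO1 (1334 CPM at 60.3%). Rpph1 had its highest WT and KO levels, 455 and 387 CPM, in the libraries poorest in microRNA, WT1 and KO2. The part of composition in these levels was not tested.

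**Figure D5:**
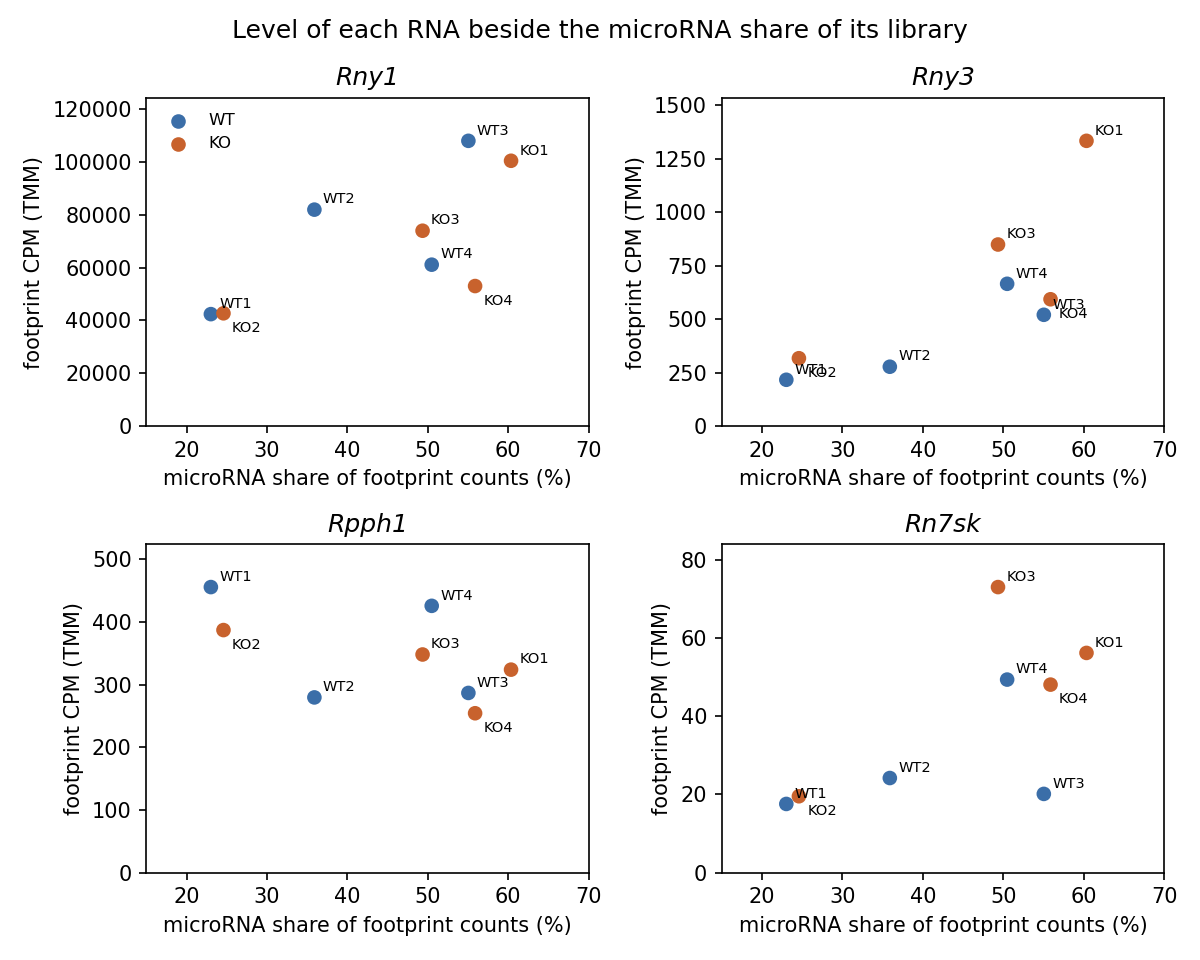
Footprint level (CPM of the TMM library size) of each RNA against the microRNA share of the same library's counts, for 4 WT (blue) and 4 KO (orange) libraries. Rny3 is lowest at microRNA shares of 23.0% to 35.9% and highest at 60.3%, while Rpph1 is highest at 23.0%.

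The genes whose footprint pattern was most like that of Rny3 over the 8 libraries were the microRNAs Mir672 (r = 0.981), Mir1969 (0.971), Mir344d-3 (0.965) and Mir92b (0.959) and the kinase gene Mast1 (0.961). For Rny1 they were the protein-coding genes Inpp5f (0.939), Tle4 (0.933), Pgp (0.919) and Kcnk1 (0.900) and the microRNA Mir540 (0.896). Among the 100 genes closest to Rny3, a number chosen after the data were seen, 59 were microRNAs, and among the 100 closest to Rny1 13 were. MicroRNAs were 181 of the 8476 genes tested (2.14%).

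Other RNAs of polymerase III were scarce in the footprint libraries beside Rny1. Of 15 listed ones in the table, 2 passed the filter. Vaultrc5, a vault RNA, had 1177 counts over the 8 libraries, averaging 74.1 ± 48.5 CPM for WT and 98.0 ± 64.0 for KO (SD, n = 4, log2 fold change 0.37 ± 0.49, SE). Bc1, a dendritic RNA of neurons, had 145 counts, at 8.04 ± 3.78 and 12.8 ± 4.15 CPM (0.73 ± 0.45). The 5S ribosomal RNA copy n-R5s136 had 68 counts and the signal recognition particle RNA gene Rn7s2 had 47. Listed small RNAs made by polymerase II were scarce too, with 1 of 16 tested. This was the minor spliceosome RNA Rnu12, at 149 counts (1.52 ± 0.76), followed by Rnu73b at 86 and Rnu5g at 29. None of these passed, and their copies in the genome can share reads.

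Proteins that bind Y RNAs were measured as ordinary coding genes. Of 10 tested in footprints, 7 had a log2 fold change above 0 (median 0.06, against 49.6% of all genes above 0 and a median of −0.0038) and 0 were called. The 2 with an unadjusted p under 0.05 were the proteins that define the Y RNA particle, named after their values were seen. Ssb, which encodes La, had 94.0, 78.2, 74.3 and 67.1 footprint CPM in WT1 to WT4 and 97.7, 118, 140 and 120 in KO1 to KO4. Every KO library was above every WT library, as for 1.57% of all genes. WT averaged 78.4 ± 11.4 CPM and KO 119 ± 17.4 (SD, n = 4), and the log2 fold change was 0.60 ± 0.16 (SE, edgeR adjusted p = 0.863). It ran from 0.53 to 0.69 when any single library was left out, and was 0.21 with microRNA counts as the library size.

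Trove2, which encodes Ro60, had 36.8, 23.3, 24.9 and 34.3 footprint CPM in WT and 51.3, 42.2, 26.9 and 46.1 in KO. KO3 lay inside the WT range and the other 3 above it. The log2 fold change was 0.52 ± 0.23 (SE, edgeR adjusted p = 0.881), and 0.08 with microRNA counts as the library size. The mRNA ranges of both genes overlapped. Ssb mRNA averaged 120 ± 20.9 CPM for WT and 112 ± 2.07 for KO (SD, n = 4, log2 fold change −0.10 ± 0.11, SE), and Trove2 mRNA 82.6 ± 8.38 and 86.9 ± 7.55 (0.07 ± 0.09). Whether the footprint and mRNA changes of these genes differ was not tested. The most counted genes of this list were the RNA-binding proteins Puf60 (footprint log2 fold change 0.02 ± 0.16, SE), Hnrnpk (0.07 ± 0.19), Ncl (0.06 ± 0.19) and Celf2 (0.17 ± 0.15).

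For the protein partners of Rpph1 and Rmrp, 7 of 11 listed subunits were tested in footprints and 2 were above 0 (median −0.09, 0 called). Pop7, a subunit shared by both enzymes, had 22.7, 15.2, 17.2 and 11.7 CPM in WT and 7.33, 6.33, 13.5 and 5.89 in KO. KO3 lay inside the WT range and the other 3 below it (log2 fold change −1.11 ± 0.38, SE, edgeR adjusted p = 0.863), while its mRNA stood at 13.7 ± 1.21 and 13.1 ± 1.22 CPM. Pop5 (0.21 ± 0.30), Rpp30 (−0.04 ± 0.30) and Pop4 (−0.46 ± 0.41) were the other subunits among the most counted of this list. All rest on few reads: over the 8 footprint libraries Pop7 had 198 counts, Pop5 358, Rpp30 248 and Pop4 148. In mRNA 10 subunits were tested, 5 above 0 and 5 below (median 0.02, 0 called).

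For 7SK, 11 of 12 listed proteins were tested in footprints, 4 above 0 (median −0.15, 0 called, log2 fold changes from −0.75 to 0.12), and 12 in mRNA, 7 above 0 (median 0.02, 0 called). The RNA-binding proteins Hnrnpa2b1 (0.12 ± 0.17), Hnrnpa1 (−0.03 ± 0.31) and Hnrnpr (−0.31 ± 0.24) were among those with the most footprints.

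The polymerase III machinery itself was measured in full in mRNA and in part in footprints. Of 18 polymerase subunits, 14 were tested in footprints, with 5 above 0 (median −0.12), and 18 in mRNA, with 7 above 0 (median −0.04). Polr2e, a subunit shared by the nuclear polymerases, differed in footprints by −0.67 ± 0.30 on the log2 scale (SE, edgeR adjusted p = 0.881) and by 0.06 ± 0.11 in mRNA. The footprint value ran from −1.03 without KO2 to −0.43 without KO4. Polr2f and Polr3k, also subunits, had footprint log2 fold changes of 0.07 ± 0.18 and −0.30 ± 0.31. Polr3a, the largest subunit, averaged 32.6 ± 8.43 footprint CPM for WT and 42.1 ± 22.5 for KO (SD, n = 4). Of 19 genes of initiation factors and their repressor, 13 were tested in footprints, 8 above 0 (median 0.06), and 19 in mRNA, 7 above 0 (median −0.05). Maf1, which restrains polymerase III, had a footprint change of −0.39 ± 0.22 and an mRNA change of 0.03 ± 0.09, and Snapc1, a factor for promoters of the Rny1 kind, of −0.51 ± 0.38 and −0.09 ± 0.18. Of the TFIIIC subunits Gtf3c1 and Gtf3c3, footprints differed by −0.14 ± 0.16 and 0.45 ± 0.26 on the log2 scale. edgeR called 0 genes of these lists in either kind of library.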

How the data were processed

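The authors deposited raw counts per gene for 8 footprint and 8 mRNA libraries, and RPKM tables made from them. TopHat2 and mm10 are named in the submitters' processing notes, and the counter, its use of strand and the annotation release are not given in the sources used here. The deposited gene length is in bases.

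The genotype fit used edgeR 4.0.16 under R 4.3.3 (TMM, quasi-likelihood test, KO against WT, Benjamini-Hochberg adjusted p under 0.05). Footprint genes were kept by filterByExpr with a minimum count of 10, mRNA genes at a mean RPKM of at least 1. Rows of a member name were to be summed, and each had 1. Shares and ratios were compared by exact permutation. Alternatives were DESeq2 1.42.0, other library sizes and filters, a replicate block and leaving out each library. Tested on simulated data, edgeR recovered 4% of 1.5-fold and 73% of 3-fold changes in footprints, and 62% and 100% in mRNA. Of its calls there, 7.23% were false in footprints and 8.47% in mRNA. The recovery is over genes drawn from all those kept and is not that of any member. Members and lists were chosen with earlier results of these data known. The rule for named genes took the members, Nsun5, the 5 genes closest in pattern to Rny1 and to Rny3, and up to 4 of the most counted genes of each list. Marker lists are given as sums, mRNA values only beside footprint ones, and 1 list gene is not reported here. Ssb, Trove2 and Gm26168 were added after their values were seen. Names of the form Gm and digits or ending in Rik were left out of the pattern search. The RefSeq promoter table (GRCm38.p6) matched 0 of 5 members. Log2 CPM used a prior count of 2. Per-library intervals are exact binomial.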

Additional observations from a re-analysis of the deposited data

Results flagged for a closer look

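In 16 groups of 4 libraries examined for a sample far from the rest, 2 had such a sample, and chance alone gives about 1 in 20 groups. The mRNA level of Rn7sk in KO3 was 1.99 CPM, where the other KO libraries had 0.398 to 0.631. The count of Gm26168 relative to Rny1 in WT4 was 0.126%, where the other WT libraries had 0.389% to 0.398%. Neither was examined further.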

How the results depend on the processing

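The log2 fold changes of Rny3, Rpph1 and Rn7sk in footprints kept their sign in all 14 alternatives and stayed short of the threshold, with adjusted p from 0.0898 (Rny3, edgeR with no filter) to 1.0. That of Rny1 turned to 0.14 without WT3 and 0.06 without KO2 (−0.37 to 0.14 over the libraries left out). Rn7sk mRNA ran from −0.33 to 0.77, Ssb mRNA from −0.18 to 0.0015 and Polr2e mRNA from −0.015 to 0.14 over the libraries left out. The count of footprint genes called was 0 in the fit reported, 4 by DESeq2, 3 with total counts and 86 with no filter, and 0 to 0 when a library was left out. For mRNA it was 0, 87 by DESeq2, 24 with no filter, and 0 to 2 when a library was left out. The cause of these differences was not tested. The summed share difference ran from −2.01 to −0.77 points when a library was left out and was 0.0176 without Rny1, and the log2 ratio of Rny1 to Rny3 differed by −1.28 to −0.72. Deviations of same-numbered WT and KO libraries had correlations of −0.247 to 0.075 in footprints and −0.238 to 0.0309 in mRNA. By this measure they did not vary together. Whether they were handled in pairs is not given by the labels, and such correlations cannot settle it. With the replicate number as a block, 0 genes were called in either kind, Rny3 was at 0.80, Rn7sk at 0.75, Rny1 at −0.13 and Rpph1 at −0.12. The single-row alternative was not run, since each name had 1 row. Rn7sk footprints rest on 31 to 131 counts per library.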
